A study of Mus musculus with 6 samples.

Results

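The let-7 family was examined in newborn mouse lung by 9 RT-PCR assays, for mmu-let-7a, mmu-let-7b, mmu-let-7c, mmu-let-7d, mmu-let-7e, mmu-let-7f, mmu-let-7g, mmu-let-7i and mmu-miR-98, written without the mouse prefix mmu where the name is repeated. They were picked by assay name among the 750 miRNA wells of the deposited table, leaving out the wells for the opposite strand of the same hairpins. All 9 lay on the first of 2 cards and gave a signal in all 6 samples. In the hyperoxia group, newborn Mus musculus less than 12 h old were placed in 95% oxygen for 168 h, and 3 samples were taken at day 7. In the room air group, newborns of the same age stayed in room air, and 3 samples were taken at day 7. The strain, the sex and the number of animals per sample are not given in the labels. In both groups the dams were swapped between room air and oxygen each day, the pulmonary artery was flushed with PBS, and the right lung was used. Nothing in the labels ties the replicates to different animals, so the spread behind each p-value may be technical.

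The let-7 miRNAs are short RNAs that load into Argonaute proteins and repress mRNAs matching their seed, the stretch near the 5′ end that pairs with targets. Known targets include the growth regulators Hmga2, Lin28a and members of the Ras family. Mature let-7 accumulates as tissues stop dividing and differentiate, and the RNA-binding protein Lin28 blocks its maturation from the hairpin in immature cells. In the lung, let-7 is abundant in many cell types, and in whole-lung RNA fewer cells of a type and less RNA per cell cannot be told apart.

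The mature sequences are shown because members with the same seed differ by only a few bases further along. RefSeq sequences of the build GRCm38.p6 were found for all 9 members. Capitals mark the seed, bases 2 to 8, written 5′ to 3′ as RNA.
mmu-let-7a: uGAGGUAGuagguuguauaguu
mmu-let-7b: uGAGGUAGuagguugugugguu
mmu-let-7c: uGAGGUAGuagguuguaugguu
mmu-let-7d: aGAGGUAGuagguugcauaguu
mmu-let-7e: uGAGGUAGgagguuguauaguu
mmu-let-7f: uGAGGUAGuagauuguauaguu
mmu-let-7g: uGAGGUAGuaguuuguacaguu
mmu-let-7i: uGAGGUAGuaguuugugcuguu
mmu-miR-98: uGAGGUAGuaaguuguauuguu

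All 9 carry the seed GAGGUAG and are 22 bases long. Counting from 1 at the 5′ end, with the let-7a base first, let-7c differs from let-7a by A19G, let-7e by U9G and let-7f by G12A. A pair of changes separates let-7b (A17G and A19G), let-7d (U1A and U16C), let-7g (G12U and U18C) and miR-98 (G11A and A19U). let-7i is the farthest, with G12U, A17G, U18C and A19U. Each assay uses its own stem-loop primer, and how far an assay reads its closest relatives was not tested.

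The hairpins lie in several places of the genome. On chromosome 13, minus strand, let-7a, let-7f and let-7d sit together (chr13:48538179-48538272, chr13:48537829-48537917 and chr13:48536012-48536114). On chromosome 15, 621 bases separate a let-7c hairpin (chr15:85706603-85706697) from let-7b (chr15:85707319-85707403). On the X chromosome, 785 bases separate a let-7f hairpin (chrX:151912346-151912428) from miR-98 (chrX:151913214-151913321). let-7g (chr9:106178840-106178927) and let-7i (chr10:122985640-122985724) stand apart from the other members. The remaining hairpins of let-7c, let-7e and let-7a lie beside miR-99, miR-100 and miR-125 hairpins and are described with them. let-7a, let-7c and let-7f are each made from 2 loci with the same mature sequence, so their assays sum both.

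The measurement is a threshold cycle (Ct), the PCR cycle at which a well's signal crosses a threshold. An earlier Ct means more RNA, and 1 cycle is a factor of 2 at full efficiency. Relative abundance is a reference minus the Ct of the assay, on a log2 scale. The reference is the sample's mean Ct over the miRNAs detected in all samples used on the card. Per sample, 307 to 319 of 375 first-card miRNA wells had a Ct under 35, the limit used for detection. Markers of lung cell types were present. The endothelial miR-126-3p had a Ct of 11.295 to 13.566, and all 6 epithelial markers, 2 smooth muscle markers and 3 leukocyte markers were detected in every sample. Markers of blood and of other tissues were read too. The erythroid miR-451 had a Ct of 20.198 to 22.993, the striated muscle miR-133a of 18.083 to 21.175 and the liver miR-122 of 24.954 to 30.372. Of the brain markers, miR-9 was detected in all 6 samples at 25.47 to 26.575 and miR-124 in 4 of 6. No tested marker passed limma's adjusted threshold, and neither did any of the 551 assays tested. The listed markers miR-124 and miR-144 had no test, the latter having no assay on the first card.

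Mean Ct in the family ran between 17.19 for let-7i and 21.46 for miR-98 in hyperoxia, and between 16.64 and 21.21 in room air. let-7i was read first, at 17.23, 16.76 and 17.57 in hyperoxia and 16.78, 16.78 and 16.37 in room air, followed by let-7e, at 16.75, 17.35 and 17.84 in hyperoxia and 16.75, 17.26 and 16.42 in room air. let-7c came next, at 17.35, 17.78 and 18.40 in hyperoxia and 17.39, 17.88 and 16.70 in room air. These 3 ranked 22, 25 and 32 of 282 assays in hyperoxia and 24, 27 and 35 in room air, counted from the earliest mean Ct. Neighbours in the order mostly overlapped within each group. let-7e preceded let-7c in every sample, while let-7i preceded let-7e in 2 of 3 samples of each group. In both groups the ranges were separate between let-7c and let-7g and between let-7a and let-7f. Assays differ in efficiency, so this order is one of readings and not of molecule numbers.

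**Figure D1:**
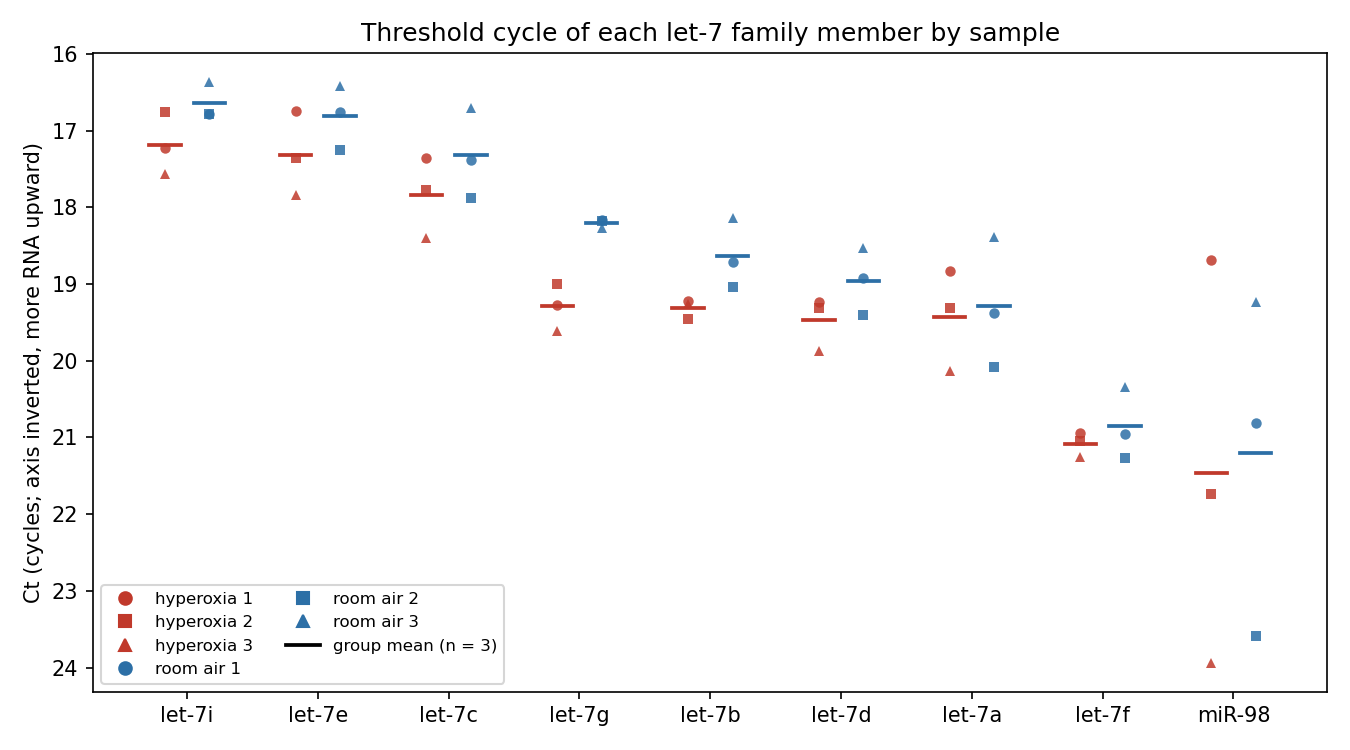
Ct of each member in each sample, ordered by mean room air Ct from earliest to latest; the y axis is in cycles and inverted so that more RNA lies upward, red marks hyperoxia, blue room air, shapes the replicate number and bars the group mean (n = 3). let-7g and let-7b are the members whose hyperoxia points all lie below all room air points, and miR-98 scatters over several cycles in both groups.

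Oxygen exposure was compared by limma across all 551 assays tested on both cards, hyperoxia over room air. No let-7 family member differed past the threshold. Of the 9 members, 0 had an adjusted p under 0.05 and 0 an unadjusted p under 0.05, in a series where 0.0% of all assays passed the adjusted and 9.07% the unadjusted threshold. The log2 fold changes were positive for 8 members and negative for 1, against 232 positive and 319 negative of all 551 assays tested. The members' median was 0.24 beside -0.12 for all assays tested. Their limma adjusted p ran from 0.745 to 0.958.

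The most positive values belonged to let-7a and let-7f, neighbours on chromosome 13. Their assays are also neighbours on the card, in plate row P, and the part of plate position was not tested. The median spread within groups was 0.598 in row P and 0.381 in row A. mmu-let-7a, whose sequence matches the let-7 of Caenorhabditis elegans, had relative abundances of 4.64, 3.30 and 3.18 in hyperoxia and 2.66, 2.40 and 4.21 in room air. Room air replicate 3 lay above 2 of the 3 hyperoxia samples, so the groups overlapped. The log2 fold change was 0.61 ± 0.65 (SE, 95% interval -1.01 to 2.24), at 0.14 without hyperoxia replicate 1 and 1.17 without room air replicate 3. mmu-let-7f stood at 2.52, 1.57 and 2.05 in hyperoxia and at 1.08, 1.21 and 2.26 in room air, a log2 fold change of 0.53 ± 0.44 (SE, 95% interval -0.57 to 1.64). Again room air replicate 3 fell inside the hyperoxia range. mmu-let-7d, the third hairpin of that cluster and the member that carries U1A, was at 4.24, 3.30 and 3.44 in hyperoxia and 3.10, 3.07 and 4.07 in room air, with a log2 fold change of 0.24 ± 0.42 (SE). Its groups overlapped for the same reason.

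Of the let-7c and let-7b pair of chromosome 15, let-7b had the value nearest 0 in the family. mmu-let-7c was at 6.11, 4.83 and 4.91 in hyperoxia and 4.64, 4.60 and 5.90 in room air, a log2 fold change of 0.24 ± 0.54 (SE). mmu-let-7b was at 4.25, 3.16 and 4.05 in hyperoxia and 3.31, 3.44 and 4.46 in room air, a log2 fold change of 0.08 ± 0.46 (SE, 95% interval -1.08 to 1.24). In both, the highest room air sample reached into or above the hyperoxia values. mmu-let-7e, made on chromosome 17, had 6.72, 5.26 and 5.47 in hyperoxia and 5.28, 5.23 and 6.18 in room air, and its log2 fold change was 0.26 ± 0.51 (SE). mmu-let-7i had 6.23, 5.86 and 5.74 in hyperoxia and 5.25, 5.70 and 6.23 in room air, with 0.22 ± 0.34 (SE). Groups overlapped for all 4.

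mmu-let-7g was the one member with a negative value. Its relative abundance was 4.19, 3.62 and 3.70 in hyperoxia and 3.86, 4.30 and 4.33 in room air, a log2 fold change of -0.33 ± 0.28 (SE, 95% interval -1.03 to 0.38, limma adjusted p = 0.754). Hyperoxia replicate 1 lay between the room air samples. Without any reference, the let-7g Ct was 19.28, 18.99 and 19.61 in hyperoxia and 18.16, 18.18 and 18.27 in room air. These groups did not overlap, and hyperoxia was later by 1.09 cycles (exact two-sided permutation p = 0.1, the smallest that 3 against 3 samples allow). Of the 282 first-card assays, 46.5% likewise had every hyperoxia Ct later, and the mean over them was later by 0.76 cycles.

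mmu-miR-98, the let-7 sequence numbered apart from the others, varied most of the 9 members between samples of a group. Its Ct was 18.69, 21.74 and 23.94 in hyperoxia and 20.81, 23.59 and 19.23 in room air. The values of both groups spread over most of the same range. Its log2 fold change was 0.51 ± 1.75 (SE, 95% interval -3.85 to 4.88), an interval that covers large changes in either direction. Its spread within groups (SD 2.53) ranked 12 from the largest among the 282 first-card assays read in every sample. The median spread was 0.384 in plate row B, where the assay sits, and 0.421 over all 282.

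**Figure D2:**
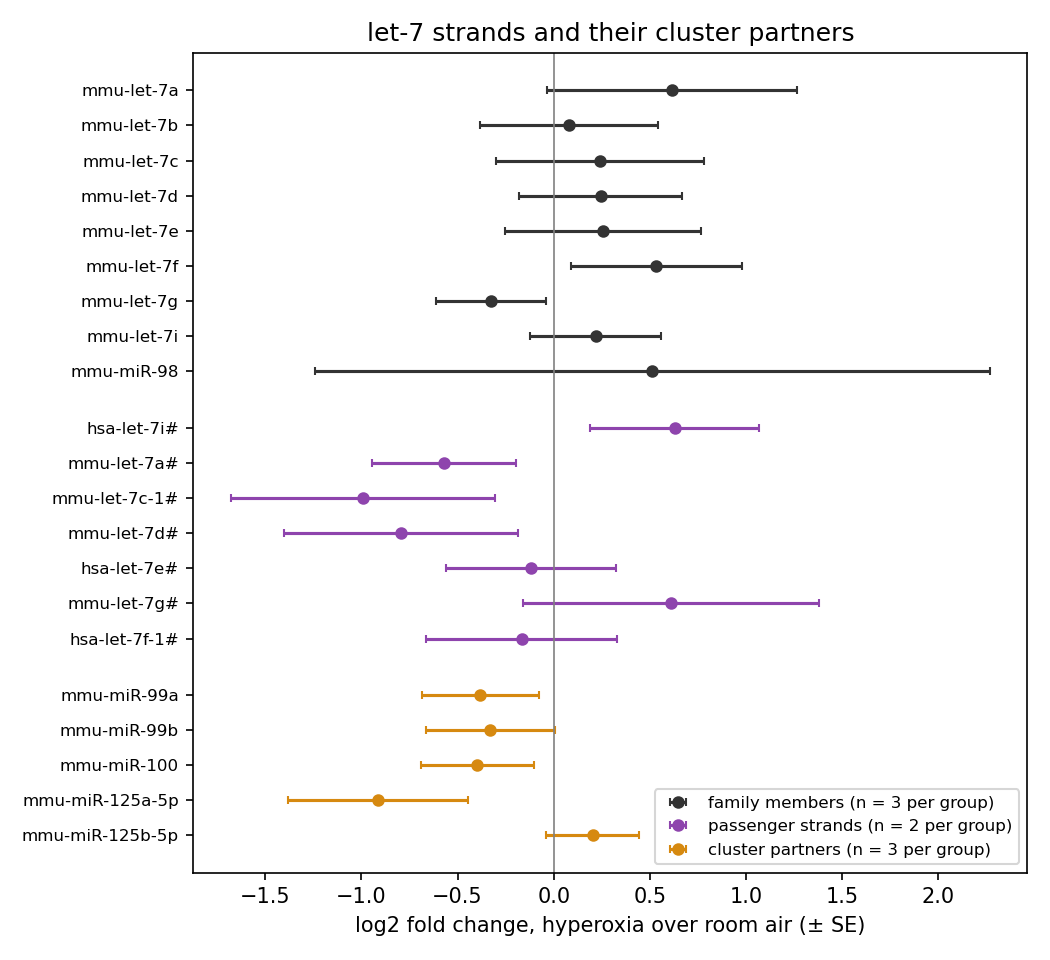
Log2 fold change of hyperoxia over room air (x axis, bars ± SE from limma) for the 9 members, the 7 tested passenger strand assays and the 5 cluster partners; the grey line marks 0. Members other than let-7g lie right of 0, 4 of 5 partners lie left of it, and the bar of miR-98 is the widest.

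In raw Ct, all 9 members were later in hyperoxia on average, as were 251 of the 282 first-card assays. The two-sided exact permutation p-values of the Ct ran from 0.1 to 0.9 over the members. The groups did not overlap for let-7b and let-7g, that is, for 2 of 9 members, against 46.5% of the 282 assays with every hyperoxia Ct later, and for 0 of 9 members against 1.06% with every hyperoxia Ct earlier. The mean Ct of the 282 assays was 23.47, 22.61 and 23.31 in hyperoxia and 22.03, 22.48 and 22.60 in room air, a shift of 0.76 cycles (exact permutation p = 0.1). The members shifted by 0.15 to 1.09 cycles. After subtracting the card mean, 0 of 9 members had groups apart in either direction, against 5.67% of assays with hyperoxia above and 16.3% with hyperoxia below.

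The sign of the family thus depended on the reference. Relative to the 5 control RNAs (U6, snoRNA135, snoRNA202, U87 and Y1) the median of the members was -0.32 and 1 member was positive, let-7a. Relative to the U6 wells of row A it was -0.08 with 3 positive members, and without normalization it was -0.52 with 0 positive. The median of all assays tested also moved down, to -0.62 with the control RNAs, -0.27 with U6 and -0.62 without normalization. It did so by other amounts than the members' median, since it includes second-card assays, whose values move differently. Under each of these references the members' median was above that of all assays. A reference subtracts 1 value per sample and card, so all first-card assays read in every sample move by the same amount. The members' place among those assays therefore cannot change, and the repeats are not separate observations. let-7g was negative under all 4 references, at -0.89 with the control RNAs, -0.65 with U6 and -1.09 without normalization. The limma threshold was passed by 0 members under any of them. The U6 wells themselves differed by row: their Ct was later in hyperoxia by 0.433 cycles in row A and by 1.059 cycles in row B. The row B shift is larger than the members' median shift without normalization, and row B alone was not tried as a reference.

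**Figure D3:**
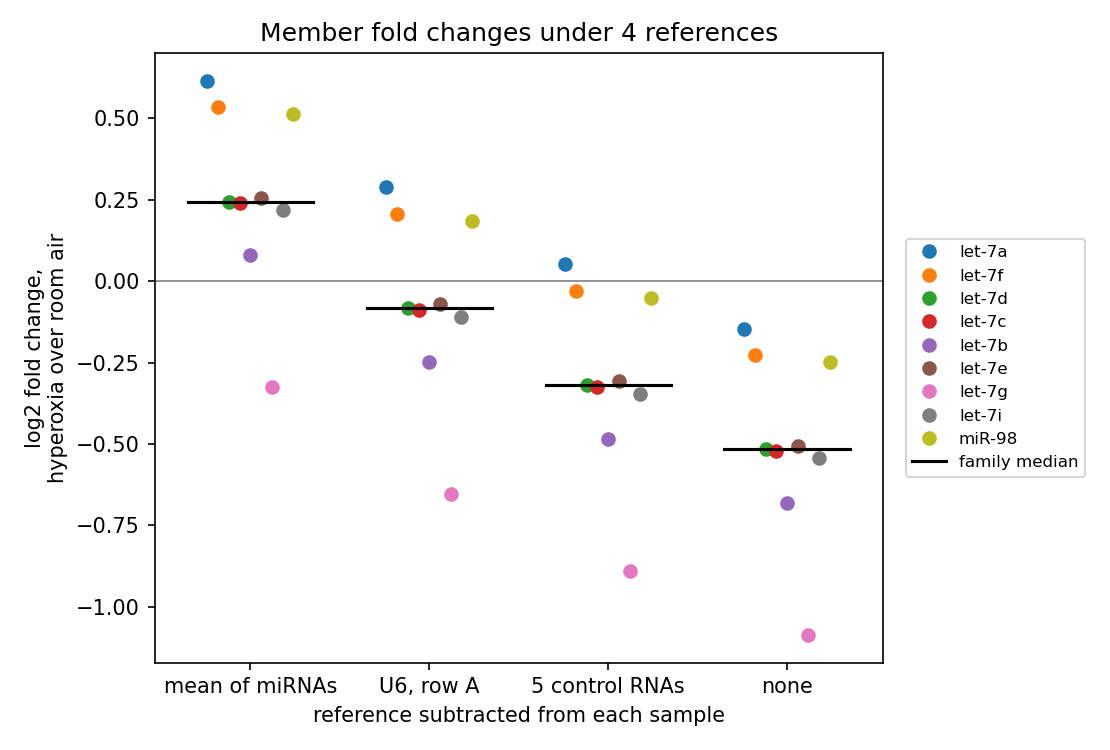
Log2 fold change of hyperoxia over room air (y axis) for each member under 4 references (x axis); points are members, offset sideways for legibility, and black bars the family median. The median stands at 0.24 with the card mean, -0.08 with U6 of row A, -0.32 with the control RNAs and -0.52 without normalization. The order of the members stays fixed because each reference moves every member by the same amount.

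Samples differed more than groups did. Averaged over the 9 members, relative abundance was 4.85, 3.53 and 3.55 in hyperoxia and 3.38, 3.21 and 4.56 in room air. Hyperoxia replicate 1 and room air replicate 3 stood well above the other 4 samples. The group means differed by 0.26 beside SDs of 0.76 in hyperoxia and 0.735 in room air (n = 3 each). With the scattered miR-98 left out, the means of the 8 let-7 members differed by 0.232 beside SDs of 0.53 in hyperoxia and 0.584 in room air. Each of the 9 members was highest in hyperoxia replicate 1 within its group and in room air replicate 3 within its group. Of all 282 first-card assays, 68 (24.1%) had their highest values in both of these samples. The members share a seed and near-identical sequences, so the 9 are not independent readings of this pattern. Both samples also had the latest card mean of their group, 23.47 in hyperoxia replicate 1 and 22.60 in room air replicate 3, and the part of this in the pattern was not tested.

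In Ct without any reference, hyperoxia replicate 1 was earliest of its group for 7 of 9 members, against 34 of all 282 assays, and room air replicate 3 for 8 of 9, against 65 of 282. let-7g was the exception in room air, where its readings had an SD of 0.058 cycles. let-7g and let-7i, which share G12U and U18C, had the narrowest ranges over the 6 samples, 0.71 and 0.99 in relative abundance. The other 6 let-7 members ranged over 1.17 to 2.24, and miR-98 over 5.88. Leaving out hyperoxia replicate 1 turned the family median to -0.15, and leaving out room air replicate 3 put it at 0.56.

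**Figure D4:**
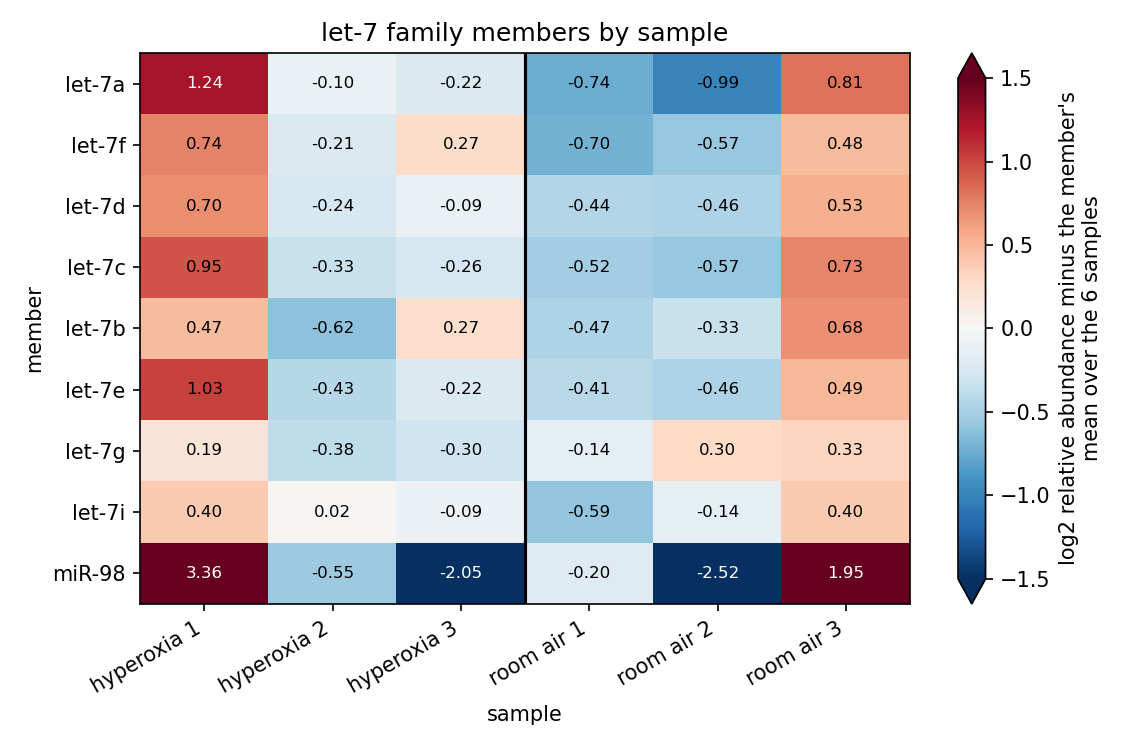
Relative abundance of each member (rows) in each sample (columns, hyperoxia left of the black line and room air right of it), as the log2 difference from that member's mean over the 6 samples; colours saturate at the ends of the scale and the printed numbers do not. Hyperoxia replicate 1 and room air replicate 3 are positive for every member, with let-7g nearest 0 in hyperoxia replicate 1 at 0.19 and miR-98 most extreme at 3.36.

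Differences between members within a sample do not depend on any reference. Each member was set against the mean of the 9 in the same sample, and 0 of 9 such differences passed. The exact two-sided permutation tests gave raw p of 0.2 to 1 and Benjamini-Hochberg adjusted p of 1 for all 9. With these sample sizes the test cannot give a p under 0.1, and the adjustment cannot lower it. No difference could therefore pass the threshold, so the count of 0 does not show that the members changed alike. let-7g gave the largest value. It was at -0.66, 0.09 and 0.16 in hyperoxia and 0.49, 1.09 and -0.23 in room air, a difference of -0.59 (exact p = 0.3). let-7a was at -0.22, -0.23 and -0.37 in hyperoxia and -0.72, -0.80 and -0.35 in room air, a difference of 0.35 (exact p = 0.2). The smallest values were those of let-7c, let-7d and let-7e, with differences of -0.02, -0.02 and -0.01. For let-7f a family mean without the scattered miR-98, chosen after its spread was seen, separated the groups, at -2.34, -2.30 and -2.01 in hyperoxia and -2.57, -2.54 and -2.45 in room air (exact p = 0.1, adjusted p = 0.9).

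Several let-7 hairpins are neighbours of hairpins with other seeds. let-7e lies on chromosome 17 between the mature miR-99b sequence, 136 bases upstream, and the miR-125a hairpin, 367 bases downstream. The let-7e hairpin (chr17:17830352-17830444, plus strand, GRCm38.p6) is printed to show how both strands come from one precursor, with the let-7e strand first and the passenger strand second in capitals.
Mirlet7e: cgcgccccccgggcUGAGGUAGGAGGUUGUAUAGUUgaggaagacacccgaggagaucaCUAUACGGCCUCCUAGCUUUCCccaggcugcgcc

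On chromosome 16, 656 bases separate a let-7c hairpin (chr16:77599657-77599750) from miR-99a, and 46528 bases from a miR-125b sequence. On chromosome 9, 5211 bases separate a let-7a hairpin (chr9:41536716-41536811) from miR-100, and 45114 from the other miR-125b hairpin. The partners are shown with their seeds in capitals, since their values are set against let-7 next.
mmu-miR-99a: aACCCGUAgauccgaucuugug
mmu-miR-99b: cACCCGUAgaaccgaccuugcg
mmu-miR-100: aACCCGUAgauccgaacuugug
mmu-miR-125a-5p: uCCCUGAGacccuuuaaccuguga
mmu-miR-125b-5p: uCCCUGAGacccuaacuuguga

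The partners miR-99a, miR-99b and miR-100 share the seed ACCCGUA, and their known targets include the growth kinase Mtor. miR-125a-5p and miR-125b-5p share CCCUGAG and are relatives of lin-4 of Caenorhabditis elegans. Of the 5 partners, 0 passed limma's adjusted threshold and 0 had an unadjusted p under 0.05. Their log2 fold changes were negative for 4 and positive for 1, against 319 negative and 232 positive of all 551 assays tested. The partners' median was -0.38, beside 0.24 for let-7 and -0.12 for all assays tested. miR-125a-5p was the most negative, at -0.91 ± 0.47 (SE, limma adjusted p = 0.667). It was at -1.41 without room air replicate 3 and -0.61 without room air replicate 1. Its Ct was 20.42, 19.49 and 19.91 in hyperoxia and 17.31, 18.02 and 19.46 in room air, where room air replicate 3 was close to hyperoxia. miR-100 was at -0.40 ± 0.29, miR-99a at -0.38 ± 0.30, miR-99b at -0.33 ± 0.33 and miR-125b-5p at 0.20 ± 0.24 (SE each). With 1 sample left out, miR-100 ranged over -0.53 to -0.22, miR-99a over -0.51 to -0.14 and miR-99b over -0.57 to -0.16.

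Differences between a let-7 member and a partner on the same chromosome were then taken within each sample, in 6 comparisons chosen after the values were seen. let-7e over miR-99b was at 0.59, -0.09 and -0.07 in hyperoxia and -0.35, -0.82 and -0.14 in room air. All 3 hyperoxia samples lay above all 3 room air samples, by 0.585 log2 units on average (exact p = 0.1, adjusted over the 6 to 0.6). The mean difference ran from 0.36 to 0.73 with 1 sample left out. let-7e over miR-125a-5p was at 3.67, 2.14 and 2.07 in hyperoxia and 0.55, 0.77 and 3.04 in room air, a difference of 1.17 with overlapping groups (exact p = 0.3). let-7a over miR-100 differed by 1.01 (exact p = 0.3) and let-7c over miR-99a by 0.62 (exact p = 0.4), and both overlapped. With 1 sample left out, let-7e over miR-125a-5p ran over 0.65 to 1.96, let-7a over miR-100 over 0.495 to 1.61 and let-7c over miR-99a over 0.16 to 1.17, lowest without hyperoxia replicate 1 for the first and without room air replicate 2 for the others, and highest without room air replicate 3 for all 3. Against miR-125b-5p, let-7a differed by 0.41 and let-7c by 0.04 (exact p of 0.6 and 0.9), and let-7a by 0.03 to 1.00 with 1 sample left out. The partner assays lie in plate row C and the let-7 assays in rows A and P, and the part of plate position was not tested.

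**Figure D5:**
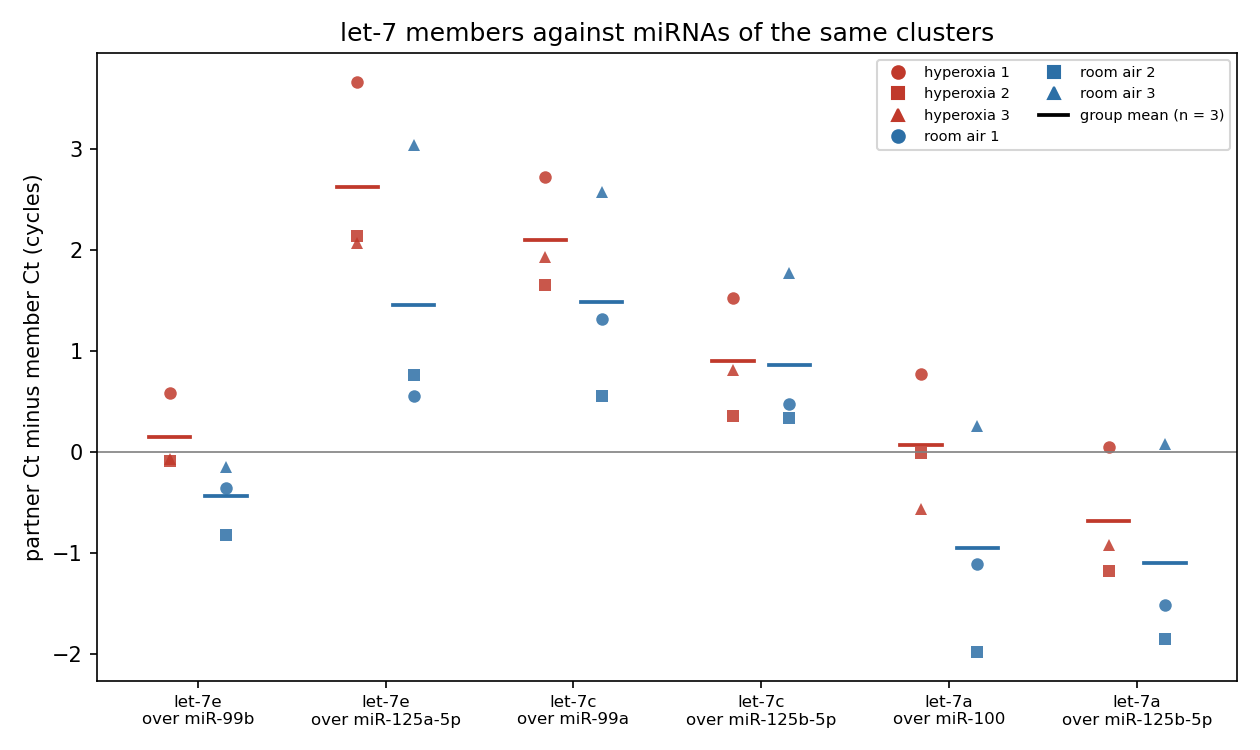
Partner Ct minus let-7 member Ct in the same sample (y axis, cycles; higher means more let-7 relative to the partner) for 6 pairs, with hyperoxia in red, room air in blue, shapes for replicate numbers and bars for group means (n = 3). let-7e over miR-99b is the pair whose groups do not overlap, and in 5 of 6 pairs the highest room air sample reaches the hyperoxia points.

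The passenger strands of let-7 hairpins are usually degraded after the guide strand is loaded. They were read by 8 assays on the second card, written with #, of which several use the human name. On that card room air replicate 1 and hyperoxia replicate 2 hold the same Ct in 308 of 309 amplified wells, all 8 of these among them, so both were left out and 2 samples per group remained. Which assay number belongs to which name on that card is uncertain, and identity rests on the names. With 7 assays tested, 0 passed limma's adjusted threshold and 0 had an unadjusted p under 0.05. Their median log2 fold change was -0.17, beside -0.12 for all assays tested. Of the 7, 2 were positive and 5 negative, against 232 positive and 319 negative of all 551 assays tested.

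let-7a# had the earliest mean Ct of the tested passenger strands in room air, with single values of 25.38 and 25.48 in hyperoxia and 25.01 and 24.34 in room air. Its log2 fold change was -0.57 ± 0.37 (SE, limma adjusted p = 0.689). let-7c-1# was read late, at 31.25 and 32.78 in hyperoxia and 30.55 and 31.12 in room air, and had the most negative log2 fold change of the 7, -0.99 ± 0.69 (SE). let-7i# was at 27.37 and 27.80 in hyperoxia and 28.46 and 27.60 in room air, a log2 fold change of 0.63 ± 0.44 (SE). let-7d#, let-7e# and let-7f-1# lay at -0.79 ± 0.61, -0.12 ± 0.44 and -0.17 ± 0.50, and let-7g# at 0.61 ± 0.77. For 6 of the 7 tested, the sign was opposite to that of the guide strand, let-7i# being the exception, but this depended on the separate references of the cards. Without normalization the sign was opposite only for let-7g# (0.424, guide -1.09) and let-7i# (0.445, guide -0.54). The signs of let-7a#, let-7d#, let-7e# and let-7f-1# also turned under other settings. let-7b# was not tested, because hyperoxia replicate 3 gave no amplification (a Ct of 40) while hyperoxia replicate 1 read 24.49 and the room air samples 25.85 and 24.95. Every passenger assay was read later than its own guide strand, though on another card.

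The assays most like the family were sought by Pearson correlation with the mean of the 9 members over the 6 samples, among 273 other first-card assays detected throughout. They were miR-382 (0.963), miR-181c (0.961), miR-296-5p (0.951), miR-214 (0.949) and miR-27a (0.916). With the mean of the 8 let-7 members without miR-98, these assays correlated at 0.972, 0.989, 0.979, 0.9 and 0.895, and miR-181c was the highest of the 5. These values are a description from 6 samples, in which all assays share 1 reference per sample. miR-181c, for example, was at 1.66, 0.62 and 0.83 in hyperoxia and 0.16, 0.25 and 1.60 in room air. miR-296-5p lies in plate row G, where the median spread within groups was 2.20 against 0.421 over the card. Its own values spread less than that row median, at 4.59, 3.38 and 3.86 in hyperoxia and 3.15, 3.04 and 4.56 in room air.

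The authors' deposited table gives its own fold of hyperoxia over room air, relative to U6 and with no test. In the authors' deposited table the fold was 1.22 for let-7a, 1.16 for let-7f and 1.14 for miR-98. For let-7e, let-7d, let-7c and let-7i the authors' deposited table gives 0.95, 0.94, 0.94 and 0.93, and for let-7g 0.64. For let-7b its fold cell holds a spreadsheet error, while the difference beside it is 0.25 cycles. The order of the members in the authors' deposited table is that of the log2 fold changes given for the U6 reference. Any single value subtracted per sample gives this order, so the match was fixed beforehand.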

How the data were processed

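TaqMan RT-PCR cards were run on pre-amplified cDNA from 6 lung RNA samples, and the deposited values are a threshold cycle per well, with 40 where a well did not amplify, per the file headers. Instrument, software and Ct threshold are not given in the sources used here. The authors' deposited fold is 2 to the power of minus the Ct difference relative to U6, hyperoxia over room air. Here a Ct of 35 or more was taken as not detected. Relative abundance was the mean Ct of the miRNAs detected in all samples used on the card minus the Ct. Assays detected in at least 2 samples per group were fitted with limma 3.58.1 in R 4.3.3, with Benjamini-Hochberg adjustment over 551 assays and a threshold of 0.05, and tested on simulated data. Single values were compared by exact two-sided permutation tests (SciPy 1.17.1), for which 0.1 is the smallest p with 3 against 3 samples. Second-card values shared by room air replicate 1 and hyperoxia replicate 2 were left out. The groups share replicate numbers. The deviations of same-numbered samples correlated at -0.336, -0.234 and -0.176, and at 0.897, 0.726 and -0.902 among the family members alone. With 3 samples per group these values cannot settle whether samples were paired, and no pairing was used in the main fit. The family members, passenger strands, cluster partners and marker lists were chosen with earlier results of these data known. All members of these lists are counted, and named assays are the members, the passenger strands, the partners and the 5 assays most like the family. No read depth applies to RT-PCR, and precision rests on 3 samples per group. Alternatives covered the reference, the Ct limit, the cards, the shared values, single samples, the replicate block and the variance trend.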

Additional observations from a re-analysis of the deposited data

How the results depend on the processing

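Over 24 other settings, 0 of 9 members and 0 of 5 partners passed limma's adjusted threshold, and 0 passenger strands did over the 17 of these for which they were computed. Over all assays, 1 passed with a Ct limit of 32 or 28, on the first card alone, without its row G or with a variance trend, 8 with no Ct limit (a Ct of 40 then enters as a value), and 0 to 1 with a sample left out. The family median ran between -0.516 and 0.562. It was -0.320 with the control RNAs, -0.083 with U6 and -0.516 without normalization, and -0.146 to 0.562 with a sample left out. The signs turned by reference follow from subtracting another constant per sample. With the control RNAs, let-7b was at -0.484, let-7c -0.324, let-7d -0.320, let-7e -0.308, let-7f -0.029, let-7i -0.346, miR-98 -0.052 and miR-125b-5p -0.361. With U6, let-7b was at -0.248, let-7c -0.088, let-7d -0.083, let-7e -0.071, let-7i -0.109 and miR-125b-5p -0.125. Without normalization, let-7a was at -0.146, let-7b -0.681, let-7c -0.521, let-7d -0.516, let-7e -0.505, let-7f -0.226, let-7i -0.542, miR-98 -0.249 and miR-125b-5p -0.558. Quantile normalization put let-7c at -0.005. A median reference put let-7e# at 0.257 and let-7f-1# at 0.210, and the first-card reference put let-7e# at 0.543, let-7f-1# at 0.496 and let-7a# at 0.093. With the shared values kept in hyperoxia, let-7d# was at 0.242 and let-7f-1# at 0.283. The cause of the passenger strand and quantile changes was not tested. With single samples left out, the range was 0.139 to 1.165 for let-7a, 0.288 to 0.897 for let-7f, -0.511 to -0.206 for let-7g, -0.146 to 0.432 for let-7b, -0.183 to 0.656 for let-7c, -0.054 to 0.562 for let-7d, -0.204 to 0.557 for let-7e, -0.021 to 0.462 for let-7i and -1.048 to 1.631 for miR-98. Within the family it was -0.513 to 0.038 for let-7b, -0.059 to 0.006 for let-7c, -0.127 to 0.130 for let-7d, -0.119 to 0.079 for let-7e, -0.225 to 0.249 for let-7i and -0.865 to 1.184 for miR-98, and for let-7c minus miR-125b-5p -0.275 to 0.491. Without miR-98 in the family mean, an alternative chosen after seeing the data, let-7c was at 0.007, let-7d at 0.012 and let-7e at 0.023. Whether the replicate numbers pair the samples was not settled, and with the replicate block 0 assays passed and the family median was 0.244. Both groups hold the same replicate numbers, so the block cannot change a member's fold change, and the unchanged median was fixed beforehand. With 3 samples per group, the widest member interval is that of miR-98, -3.85 to 4.88.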
